A study of Rattus norvegicus with 14 samples.

Results

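The steroid receptor genes Esr1, Esr2, Pgr, Gper1, Nr3c1 and Nr3c2 and the coregulator genes Ncoa1, Ncoa2, Ncoa3 and Ncor1 were followed in newborn rat foreskin. They were taken by gene symbol, from every probe set of the array annotated with exactly 1 of these 10 symbols, which gave 11 probe sets. They stand among 14497 genes tested. The flutamide group held foreskins of 7 Sprague Dawley litters whose dams received 5 mg/kg/day of flutamide, an antiandrogen drug, given by gavage once daily from gestational day 16 until day 20. The corn oil group held 7 litters whose dams received only the vehicle, corn oil, by the same route on the same days. Pups of both groups carried no other agent or allele named in the labels. Tissue was taken on postnatal day 5, days after the last dose, and 2 foreskins per litter went into a common RNA sample. Replicates are therefore litters, and single pups cannot be told apart.

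Steroid receptors are proteins that hold their hormone and change the transcription of target genes. The nuclear receptors of this group wait bound to chaperones or on chromatin, and on binding their hormone they recruit coactivators, while corepressors silence genes in the absence of activating ligand. Esr1 and Esr2 encode the oestrogen receptors alpha and beta, Pgr the progesterone receptor, Nr3c1 the glucocorticoid receptor and Nr3c2 the mineralocorticoid receptor. Gper1 encodes a membrane receptor coupled to G proteins that responds to oestrogens and is no nuclear receptor. Ncoa1, Ncoa2 and Ncoa3 encode the p160 coactivators, and Ncor1 encodes a corepressor that carries histone deacetylase to receptors. In genital skin, oestrogen receptor alpha is known from the mesenchyme and the glucocorticoid receptor is present in most cell types.

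The arrays resembled each other, with sample medians within 0.073 of each other on the log2 scale and correlations across genes from 0.984 to 0.992. The SD over probe sets was lowest in flutamide replicate 7, at 1.68, and in corn oil replicate 6, at 1.69. It was highest in corn oil replicate 1, at 1.76. Flutamide replicate 7 also had the highest median, 5.70. The part of this array range in results that hung on single litters was not tested. The number of arrays limits the precision. Beside the tissue label, the brightest marker gene of each cell type list is given. Being chosen by its level, it stands above its list and is no test of the label. The epidermal keratin genes Krt10 and Krt14 averaged 12.3 and 9.85, the dermal matrix gene Dcn 11.1 and the smooth muscle actin gene Acta2 10.1 over the 14 litters. The brightest markers of skeletal muscle, endothelium, macrophages, adipocytes and Schwann cells were Tnnt3 at 7.21, Emcn at 7.73, Mrc1 at 7.32, Fabp4 at 6.10 and Erbb3 at 5.99. The median array value of a list was 10.3 for cornified epidermis, 8.91 for basal keratinocytes and 8.88 for fibroblasts. It was 6.95 for endothelium, 6.44 for smooth muscle and pericytes and 5.95 for macrophages. For skeletal muscle it was 5.90, for Schwann cells 5.80 and for adipocytes 5.41. No marker gene of these 9 cell types passed the limma test between flutamide and corn oil litters. The median differences of the lists lay between -0.14 for smooth muscle and pericytes and 0.02 for cornified epidermis. The defining basal marker genes Krt5 and Trp63 were not analysed here.

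None of the 10 genes was called as different between flutamide and corn oil litters. The call was a limma adjusted p under 0.05 over all genes tested, which 1 of 14497 genes, or 0.00690%, passed. At an unadjusted limma p under 0.05 the count was also 0 of 10 members, against 9.16% of all genes, 5.70% higher and 3.46% lower in flutamide litters. The groups overlapped for every member, and did not overlap for 0.124% of all genes. Of the members 5 lay above 0 in flutamide litters, against 52.3% of all genes. The median difference of the members was -0.003 on the log2 scale, and that of all genes was 0.005.

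**Figure D1:**
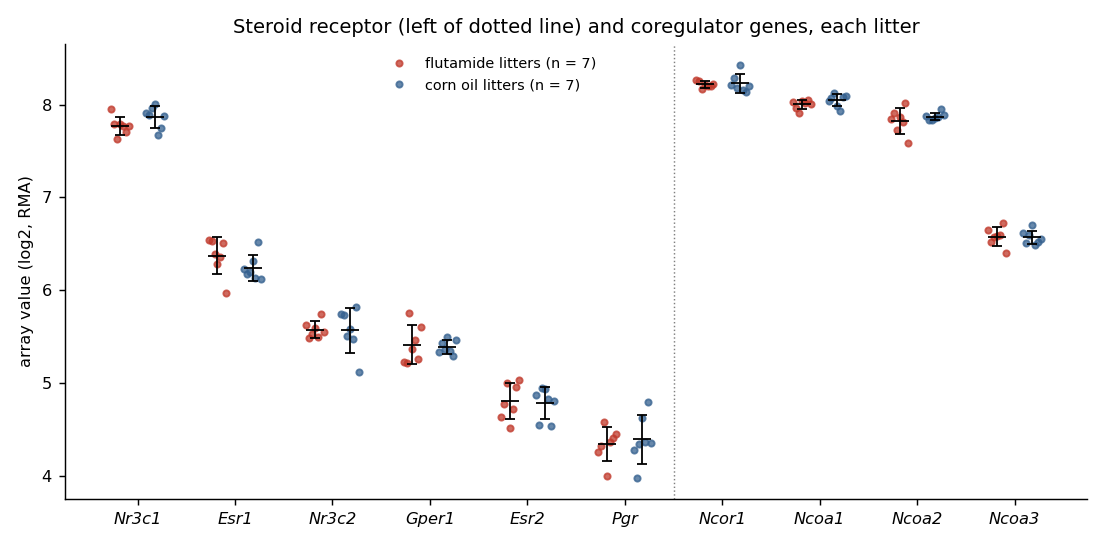
The vertical axis gives the array value of each gene on the log2 scale, with 1 point per litter, flutamide litters in red and corn oil litters in blue, and black bars for the mean and SD (n = 7 each). The groups overlap for all 10 genes, with Esr1 a little higher and Nr3c1 a little lower in flutamide litters.

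Nr3c1, the glucocorticoid receptor gene, had the highest array value of the receptors. It ran from 7.63 to 7.95 with a median of 7.77 in flutamide litters, and from 7.67 to 8.0 with a median of 7.89 in corn oil litters. Its mean was 7.77 ± 0.10 in flutamide and 7.87 ± 0.12 in corn oil litters (SD, n = 7 each). In 6 of 7 flutamide litters the value lay below the corn oil mean, and flutamide replicate 1 was the exception. The difference of -0.10 (SE 0.06) had a 95% interval from -0.23 to 0.04 and a limma adjusted p of 0.681. The groups overlapped, and flutamide replicate 3 was the 1 flutamide litter below the lowest corn oil litter. Smooth muscle and pericyte markers were also lower in the flutamide litters, with a mean over 9 genes of 6.99 ± 0.10 against 7.17 ± 0.10 in corn oil litters (SD, n = 7 each). These list means ran from 6.86 to 7.14 in flutamide and from 7.04 to 7.29 in corn oil litters. At an unadjusted limma p under 0.05, 4 of the 9 genes had lower values, against 3.46% of all genes. Skeletal muscle markers averaged 6.01 ± 0.14 in flutamide and 6.14 ± 0.13 in corn oil litters over 8 genes, and adipocyte markers 5.23 ± 0.05 in flutamide and 5.34 ± 0.10 in corn oil litters over 6 genes (SD, n = 7 each). At an unadjusted p under 0.05, 1 of the skeletal muscle genes was lower, and of the adipocyte genes 3 were lower and 1 higher. Among all genes 3.46% were lower and 5.70% higher at this threshold. Of the other list means, those of basal keratinocytes (-0.05), endothelium (-0.06), macrophages (-0.07) and fibroblasts (-0.01) were lower in flutamide litters. Those of cornified epidermis (0.02) and Schwann cells (0.009) were higher. After centring on group means, Nr3c1 had Pearson r of 0.47 with the smooth muscle and pericyte list mean. This r was 0.06 within flutamide and 0.83 within corn oil litters. Over all litters r was 0.40 for skeletal muscle, 0.37 for adipocytes, 0.29 for Schwann cells, 0.27 for endothelium and 0.26 for macrophages. It was -0.28 for cornified epidermis, -0.27 for basal keratinocytes and -0.08 for fibroblasts. No list passed the permutation test after adjustment. The part of these markers in the Nr3c1 group difference was not tested. In bulk tissue, fewer cells of a type and less RNA per cell cannot be told apart.

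Nr3c2, the gene of the mineralocorticoid receptor, which binds aldosterone and also glucocorticoids, had closely matched group means. Its values ran from 5.48 to 5.74 with a median of 5.55 in flutamide litters, and from 5.12 to 5.82 with a median of 5.58 in corn oil litters. The flutamide litters were all inside the range of the corn oil litters. The SD was 0.09 in flutamide litters and 0.24 in corn oil litters, a contrast in spread that was not tested and to which the low value of corn oil replicate 7 contributed. The difference was 0.007 (SE 0.09), with an interval from -0.18 to 0.19.

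Esr1, the oestrogen receptor alpha gene, had the largest difference of the members in the direction of higher flutamide values. Its brighter probe set ran from 5.97 to 6.54 with a median of 6.39 in flutamide litters, and from 6.12 to 6.52 with a median of 6.20 in corn oil litters. The means were 6.37 ± 0.20 in flutamide and 6.24 ± 0.14 in corn oil litters (SD, n = 7 each). In 6 of 7 flutamide litters the value was above the corn oil mean, and flutamide replicate 7 was the lowest of all 14. The difference of 0.13 (SE 0.09) had an interval from -0.05 to 0.31 and a limma adjusted p of 0.683, so it did not pass. Without flutamide replicate 7 the difference was 0.20, over 1.5 times as large, with a limma adjusted p of 0.544.

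The dimmer Esr1 probe set also had a positive difference. It ran from 5.78 to 5.93 in flutamide litters, and from 5.42 to 5.87 in corn oil litters. Its difference was 0.11 (SE 0.06) in the limma fit over all probe sets, with an adjusted p of 0.590. Without corn oil replicate 1, the lowest litter on this probe set, it was 0.06. The mean of both Esr1 probe sets differed by 0.12 (SE 0.06), with an unadjusted limma p of 0.0510 and an adjusted p of 0.544. From litter to litter, however, the probe sets did not move together. After each group was centred on its own mean, their Pearson r was -0.20 (permutation p = 0.413) and Spearman's rho was -0.49 (permutation p = 0.0709) over 14 litters, with r of -0.54 in flutamide and -0.10 in corn oil litters. Without the 2 litters farthest from the median of the brighter probe set r was -0.14.

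Esr2, the oestrogen receptor beta gene, lay lower on the array. It ran from 4.52 to 5.03 with a median of 4.78 in flutamide litters, and from 4.54 to 4.95 with a median of 4.83 in corn oil litters. The difference was 0.02 (SE 0.09), with an interval from -0.16 to 0.21. The means and the medians thus stood in opposite order, within overlapping ranges.

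Pgr, the progesterone receptor gene and a classical target of oestrogen receptor alpha, had the lowest array value of the receptors. It ran from 4.0 to 4.59 with a median of 4.37 in flutamide litters, and from 3.98 to 4.80 with a median of 4.36 in corn oil litters. Every flutamide litter lay inside the corn oil range. The difference was -0.05 (SE 0.11), with an interval from -0.27 to 0.17.

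Gper1, the membrane oestrogen receptor gene, had nearly equal medians. It ran from 5.21 to 5.76 with a median of 5.37 in flutamide litters, and from 5.29 to 5.50 with a median of 5.37 in corn oil litters. Flutamide litters thus held both the lowest and the highest value, with an SD of 0.21 against 0.08 in corn oil litters, whose ratio was not tested. The difference was 0.02 (SE 0.08), with an interval from -0.14 to 0.19. Without flutamide replicate 3, the highest litter, it was -0.03.

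Among the p160 coactivator genes, Ncoa1, whose protein is also known as SRC-1, ran from 7.91 to 8.04 with a median of 8.01 in flutamide litters, and from 7.93 to 8.12 with a median of 8.07 in corn oil litters. Its difference was -0.04 (SE 0.05), with an interval from -0.15 to 0.06, and 6 of 7 flutamide litters lay below the corn oil mean.

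Ncoa2, whose protein is a coactivator also able to repress with the glucocorticoid receptor, ran from 7.59 to 8.02 with a median of 7.84 in flutamide litters, and from 7.83 to 7.95 with a median of 7.87 in corn oil litters. The flutamide litters spread more widely, with an SD of 0.14 against 0.04 in corn oil litters. Flutamide replicates 3, 5 and 7 lay below all corn oil litters and flutamide replicate 6 above them, and the spreads were not compared by a test. The difference was -0.05 (SE 0.06), with an interval from -0.17 to 0.08. It was -0.007 without flutamide replicate 7.

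Ncoa3, whose protein is known as amplified in breast cancer 1, had the lowest array value of the 4 coregulators. It ran from 6.40 to 6.72 with a median of 6.58 in flutamide litters, and from 6.49 to 6.70 with a median of 6.55 in corn oil litters. Its difference was 0.007 (SE 0.06), with an interval from -0.11 to 0.13.

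Ncor1, the corepressor gene, ran from 8.17 to 8.27 with a median of 8.21 in flutamide litters, and from 8.13 to 8.43 with a median of 8.20 in corn oil litters. The difference was -0.01 (SE 0.05), with an interval from -0.12 to 0.10. Corn oil replicate 4 was the highest of the 14 litters, and flutamide litters had the smaller SD, 0.03 against 0.10.

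Limma adjusted p-values of the 8 members other than Esr1 and Nr3c1 ran from 0.831 to 0.992. A p that misses the threshold does not show equal levels, so the intervals give the bound. The largest fold change that the 95% intervals still held, in either direction, ran from 1.09 for Ncor1 and Ncoa3 to 1.24 for Esr1. Among all genes, 99.3% had an interval within 1.5-fold. RMA shrinks differences of dim probe sets, which bears most on Pgr and Esr2.

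**Figure D2:**
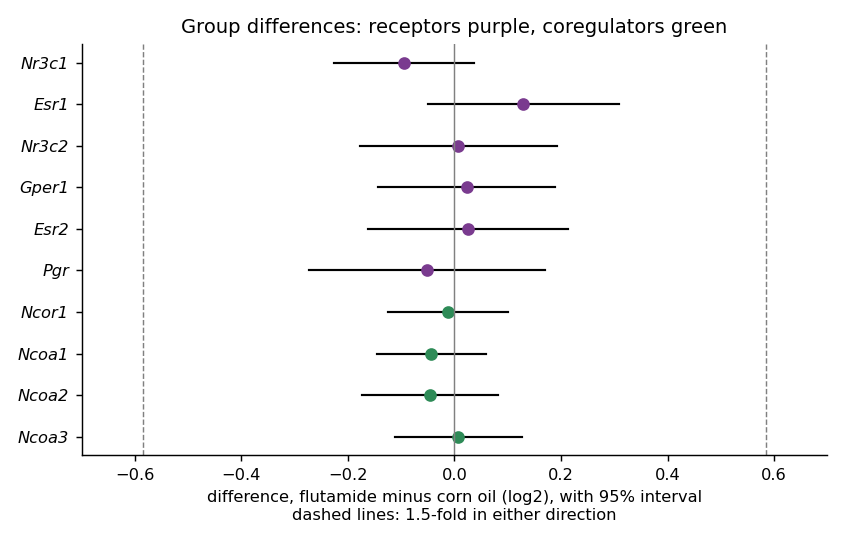
The horizontal axis gives the difference of flutamide minus corn oil litters on the log2 scale, with a point for each gene and a line for its 95% interval from limma (n = 7 litters each). All 10 intervals include 0 and lie inside the dashed lines at 1.5-fold.

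The receptors were then placed by array value over all 14 litters. Nr3c1 came first at 7.82 ± 0.11, followed by Esr1 at 6.31 ± 0.18, Nr3c2 at 5.57 ± 0.17, Gper1 at 5.40 ± 0.15, Esr2 at 4.79 ± 0.18 and Pgr at 4.37 ± 0.22 (SD, n = 14). Values of different probe sets depend on how well each binds its target, so this is an order of array values and not of RNA amounts. It was the same order in the means of flutamide litters and of corn oil litters, and it held in full in 10 of 14 single litters. Nr3c1 exceeded Esr1 in 14 of 14 litters, by 1.51 ± 0.22, and Esr1 exceeded Nr3c2 in 14 of 14, by 0.74 ± 0.20 (SD, n = 14). Esr1 was placed here by its brighter probe set. The dimmer one averaged 5.78, above the Nr3c2 mean, but lay below Nr3c2 in corn oil replicates 1 and 6. It was 5.42 against 5.75 in corn oil replicate 1 and 5.69 against 5.82 in corn oil replicate 6.

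The other neighbours were closer. Nr3c2 exceeded Gper1 in 11 of 14 litters, by 0.17 ± 0.26 (SD, n = 14). It was the higher in 5 of 7 flutamide and 6 of 7 corn oil litters, and the difference was not tested. Gper1 exceeded Esr2 in 14 of 14 litters, by 0.61 ± 0.18. Esr2 exceeded Pgr in 13 of 14, by 0.43 ± 0.22 (SD, n = 14), and corn oil replicate 6 was the exception.

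Placed among all 14497 genes, Nr3c1 lay at percentile 89.5 of array value, Esr1 by its brighter probe set at 62.4 and Nr3c2 at 39.6. Gper1 lay at 34.8, Esr2 at 20.0 and Pgr at 13.7. The coregulators were at percentile 93.0 for Ncor1, 91.5 for Ncoa1, 89.8 for Ncoa2 and 69.4 for Ncoa3. No detection calls were used here. The 1104 olfactory receptor genes, which are used mainly in olfactory neurons, were taken as a yardstick after the member values were seen. Their array values had a median of 3.72, with 5% below 1.96 and 5% above 5.31. The Pgr value was above 72.8% of them and the Esr2 value above 86.0%, so both lay inside that range. Gper1 was above 95.6% and Nr3c2 above 96.6%, near its upper end, while Esr1 by its brighter probe set was above 99.8%. Nr3c1 and the 4 coregulator genes lay above all of these olfactory genes.

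**Figure D3:**
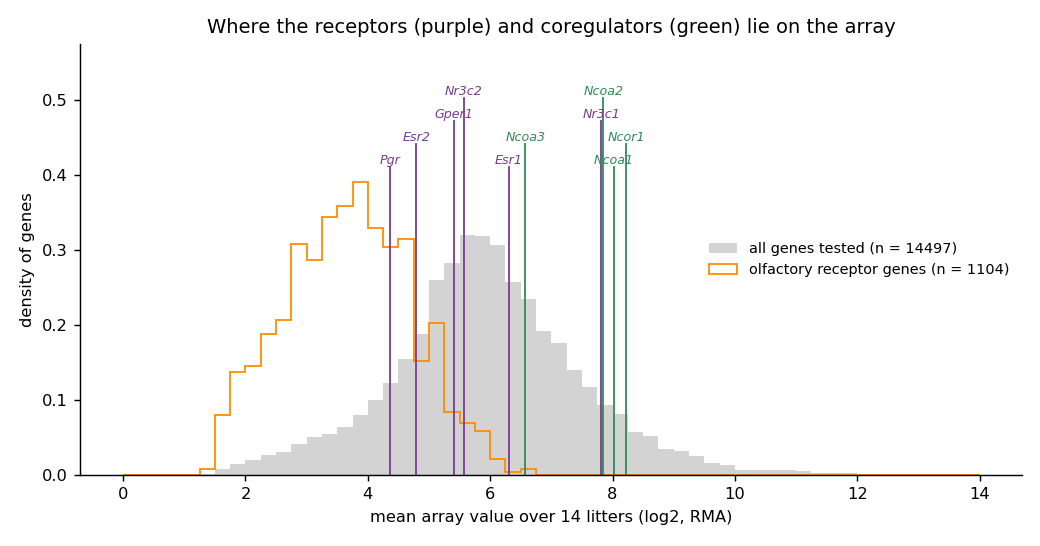
The horizontal axis gives the mean array value over 14 litters on the log2 scale and the vertical axis the density of genes, for all 14497 genes in grey and 1104 olfactory receptor genes in orange. Vertical lines mark the receptors in purple and the coregulators in green, and Pgr and Esr2 fall within the range of the olfactory genes.

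Promoter sequence was available from RefSeq, build GRCr8, for 6 of the 10 genes, in windows of 250 bases before an annotated start. The windows of the lowest and the highest member by array value are shown because they also differ in their content of CG dinucleotides, which are printed in capitals. Both are written 5′ to 3′ along the gene. The Pgr window is chr8:14354148-14354397 on the plus strand and the Ncor1 window is chr10:47640351-47640600 on the minus strand. The Pgr window ends next to the outer start of the annotated gene, at 14354398. The Ncor1 window lies inside the annotated gene, which reaches to 47641612, so it precedes an inner start.
Pgr: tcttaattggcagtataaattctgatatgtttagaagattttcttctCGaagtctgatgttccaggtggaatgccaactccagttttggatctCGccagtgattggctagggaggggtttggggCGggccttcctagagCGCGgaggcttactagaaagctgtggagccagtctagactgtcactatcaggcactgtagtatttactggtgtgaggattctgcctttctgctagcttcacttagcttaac
Ncor1: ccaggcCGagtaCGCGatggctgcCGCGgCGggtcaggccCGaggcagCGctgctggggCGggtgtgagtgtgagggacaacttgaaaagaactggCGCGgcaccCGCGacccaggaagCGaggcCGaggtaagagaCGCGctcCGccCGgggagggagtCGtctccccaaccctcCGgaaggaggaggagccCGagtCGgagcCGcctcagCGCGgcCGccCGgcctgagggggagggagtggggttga

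The Pgr window held 5 CG dinucleotides and had a GC content of 46.8%, and the Ncor1 window held 28 with a GC content of 72.0%. Over 33470 such windows of the rat genome the medians were 5 CG dinucleotides and a GC content of 51.2%. The window of Ncoa1 held 38 CG dinucleotides, and those of the 2 annotated starts of Nr3c1 held 20 and 38. Esr1 had 8 and Esr2 had 14. Of the genes with a window, the 3 above an array value of 7.8 thus had 20 or more in every window, and the 3 below 6.4 had 14 or fewer, a description of 6 genes chosen by name.

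The same windows were searched on both strands for the short motifs that the receptors recognise as pairs. The oestrogen receptor motif AGGTCA was in none of the 7 windows of these 6 genes, and in 14.1% of all windows. The motif TGTTCT of the glucocorticoid, mineralocorticoid and progesterone receptors occurred 2 times in the Ncoa1 window and in no other, against 17.5% of all windows. A match describes letters in a window and shows no binding.

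Genes around the receptors were compared in the same limma fit, by lists of pathway genes. Among all genes, 9.16% had an unadjusted limma p under 0.05. Other coregulators had 30 measured members, of which 0 passed in either direction, 11 lay above 0 and 19 below, with a median difference of -0.02. At an unadjusted p under 0.05 there was 1, Ppargc1b, a coactivator of mitochondrial genes, with 6.24 ± 0.13 in flutamide and 6.08 ± 0.12 in corn oil litters (SD, n = 7 each) and a limma adjusted p of 0.501. Prmt1, an arginine methyltransferase, had the largest difference, 0.25 (SE 0.13). Its values were widely spread, from 7.08 to 7.65 in flutamide and from 6.51 to 7.50 in corn oil litters. Tbl1xr1, a subunit of the Ncor1 complex, differed by -0.13 (SE 0.07), and the coactivator gene Ncoa6 by -0.09 (SE 0.05).

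Chaperones that hold unliganded receptors had 15 measured members, and 0 passed in either direction, with 5 above 0 and a median difference of -0.02. Hspa8, a constitutive heat shock chaperone gene, differed by 0.21 (SE 0.08, limma adjusted p = 0.443), and was the 1 member with an unadjusted p under 0.05. It ran from 11.3 to 11.7 in flutamide and from 11.1 to 11.6 in corn oil litters. Hsp90ab1, whose heat shock protein holds the receptor in its binding state, differed by 0.08 (SE 0.05). The kinase cochaperone gene Cdc37 differed by -0.17 (SE 0.08) and the immunophilin gene Fkbp5 by -0.11 (SE 0.08).

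Nuclear receptors outside the steroid group had 29 measured members, 16 above 0 and 13 below, with a median of 0.007 and none passing. Vdr, the vitamin D receptor gene, had the smallest p-value of the pathway genes. It ran from 5.38 to 5.69 in flutamide litters and from 5.57 to 5.86 in corn oil litters, which overlapped. Its difference of -0.19 (SE 0.06) had a limma adjusted p of 0.363 and rank 287 by p-value among all genes. Pparg, the receptor of adipocyte formation, differed by -0.13 (SE 0.08), Nr2f2 by 0.12 (SE 0.07) and Esrra, an orphan receptor gene, by 0.11 (SE 0.07).

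Target genes of the receptors also gave no call. Of 23 glucocorticoid target genes, 10 lay above 0 and 13 below, with a median of -0.01. The unadjusted p was under 0.05 for 1, the sulfotransferase gene Sult1a1, at -0.19 (SE 0.07, limma adjusted p = 0.443). The stress genes Ddit4 and Gadd45b differed by 0.12 (SE 0.07) and 0.13 (SE 0.07), and Angptl4, an inhibitor of lipoprotein lipase, by -0.12 (SE 0.07).

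Of 13 genes that respond to the mineralocorticoid receptor or set corticosteroid access, 8 lay above 0 and 5 below, with a median of 0.03, and 0 had an unadjusted p under 0.05. Cnksr3, a scaffold of sodium channel regulation, differed by 0.13 (SE 0.07) and Tsc22d3, the glucocorticoid-induced leucine zipper gene, by 0.08 (SE 0.06). Sgk1, a kinase gene shared by the glucocorticoid list, differed by -0.09 (SE 0.06), and the sodium channel subunit gene Scnn1g by -0.12 (SE 0.09).

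Of 24 oestrogen or progesterone target genes, Pgr itself among them, 11 lay above 0 and 13 below, with a median of -0.003. Ltf, the lactoferrin gene, was the 1 with an unadjusted p under 0.05, at -0.17 (SE 0.07, limma adjusted p = 0.434). It ran from 4.55 to 4.87 in flutamide litters and from 4.76 to 5.09 in corn oil litters. Ihh, which encodes Indian hedgehog, differed by 0.14 (SE 0.08), Cited1, a transcriptional coactivator gene, by 0.11 (SE 0.08) and Cxcl12, a chemokine gene, by -0.14 (SE 0.09).

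**Figure D4:**
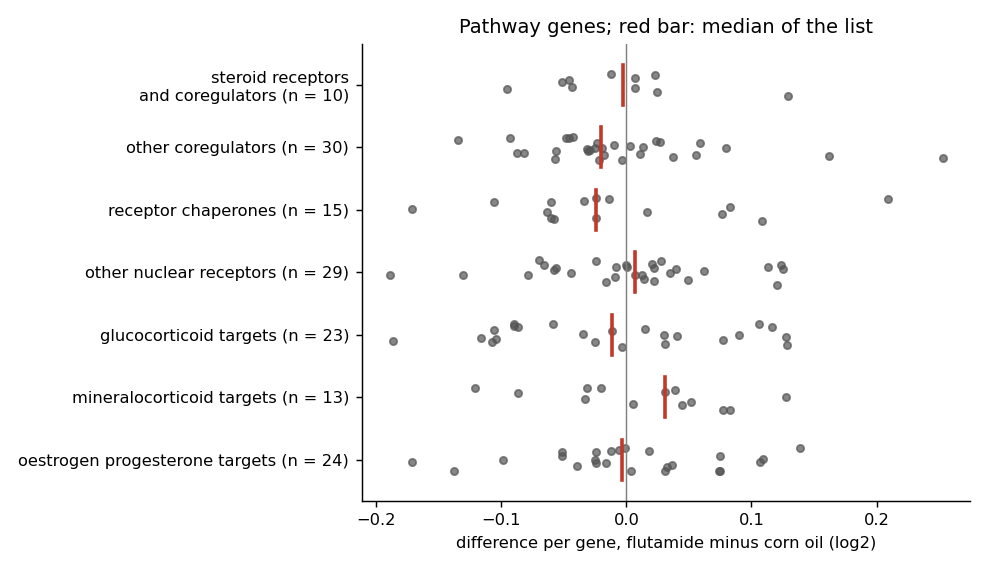
The horizontal axis gives the difference of flutamide minus corn oil litters on the log2 scale, with 1 point per gene, 1 line of points per list and a red bar at the median of the list. The medians lie between -0.02 and 0.03, and no gene passed the limma test.

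Litters of the same treatment were also compared for members that varied together, with every value centred on its group mean. Among the 45 member pairs, 0 passed a permutation test of Pearson's r after Benjamini-Hochberg adjustment, 0 by Spearman's rho, and 3 had an unadjusted p under 0.05. Unrelated pairs have such a p in a share of about 0.05, and 3 of 45 is near that share. Esr1 and Ncoa2 had r of 0.74 (permutation p = 0.00731, adjusted 0.289) and rho of 0.51 (permutation p = 0.0716, adjusted 0.460), with r of 0.80 in flutamide and 0.69 in corn oil litters. Without the 2 litters farthest from the median of Esr1, r was 0.46. The relation rested in part on those litters.

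Nr3c1 and Ncor1 had r of 0.67 (permutation p = 0.0128, adjusted 0.289) and rho of 0.64 (permutation p = 0.0203, adjusted 0.456). It was 0.87 within flutamide and 0.68 within corn oil litters, and 0.65 without the 2 farthest litters. Gper1 and Ncoa2 had r of -0.75 (permutation p = 0.0210, adjusted 0.315) and rho of -0.82 (permutation p = 0.00233, adjusted 0.105). Their r was -0.77 in flutamide and -0.50 in corn oil litters, and -0.64 without the 2 farthest. Flutamide replicate 7, the array with the lowest SD over probe sets, had the lowest Ncoa2 value of all litters, 7.59. Its brighter Esr1 value was also the lowest, and its Gper1 value, 5.60, was below only that of flutamide replicate 3. The part of array range in these correlations was not tested.

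Esr2 and Pgr had r of 0.41 (permutation p = 0.153, adjusted 0.619) and rho of 0.42 (permutation p = 0.144, adjusted 0.589), with 0.89 in flutamide and 0.05 in corn oil litters. Without corn oil replicate 6, r was 0.86 (permutation p = 0.00019, adjusted 0.00855), so this litter decided the call. No member pair passed in any other setting, and p-values were not adjusted over settings. Both genes have array values inside the range of the olfactory genes, and the part of background signal in r was not tested. Corn oil replicate 6 had the highest Pgr and the lowest Esr2 value of its group. Without the 2 litters farthest from the median of Esr2 r was 0.75.

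**Figure D5:**
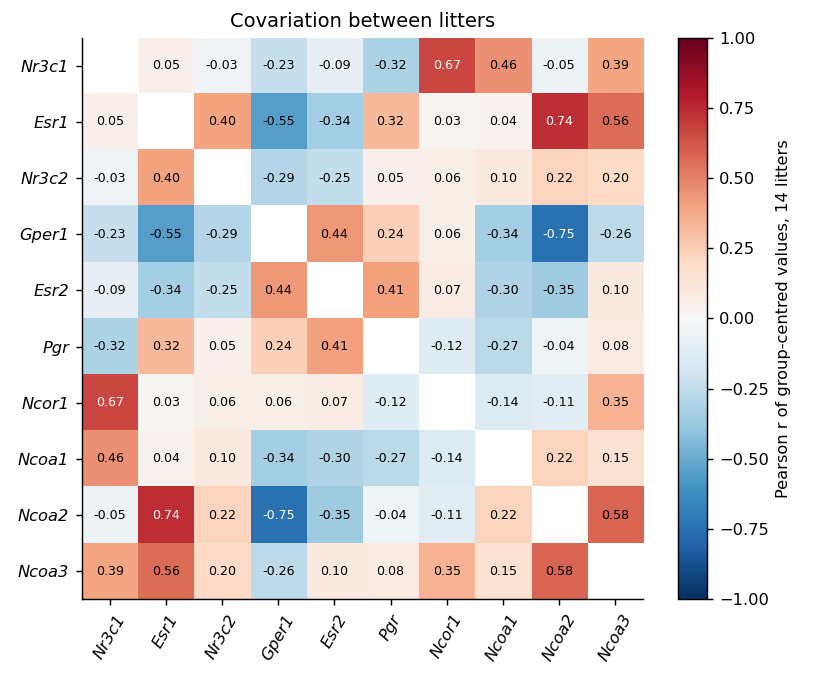
Each square gives Pearson's r of a pair of genes over 14 litters after each group was centred on its own mean, red for positive and blue for negative values on a scale from -1 to 1. The strongest squares are Esr1 with Ncoa2 at 0.74, Nr3c1 with Ncor1 at 0.67 and Gper1 with Ncoa2 at -0.75, and none passed after adjustment.

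Each member was set against the mean of 9 marker lists for cell types of the tissue, 90 relations in all. None passed after adjustment by Pearson's r or by Spearman's rho, and 5 had an unadjusted permutation p under 0.05 by Pearson's r. Unrelated values have such a p in a share of about 0.05, and 5 of 90 is near that share. Ncoa2 had r of 0.76 with the 5 basal keratinocyte markers (permutation p = 0.00181, adjusted 0.163) and rho of 0.77 (permutation p = 0.00194, adjusted 0.175). It was 0.92 within flutamide and 0.44 within corn oil litters, and 0.62 without the 2 litters farthest from the median of the markers. Without corn oil replicate 6 it was 0.77 and passed (permutation p = 0.00019, adjusted 0.0171). The relation passed in no other setting, and the part of array range in it was not tested. The basal marker mean was 8.31 ± 0.07 in flutamide and 8.36 ± 0.06 in corn oil litters (SD, n = 7 each). Ncoa2 also had r of 0.66 with fibroblast markers (permutation p = 0.0246, adjusted 0.763), with rho of 0.54 (permutation p = 0.0673, adjusted 0.596) and 0.40 without the 2 farthest litters. This was 0.85 within flutamide and -0.10 within corn oil litters. Esr2 had r of -0.61 with Schwann cell markers (permutation p = 0.0267, adjusted 0.763) and rho of -0.61 (permutation p = 0.0271, adjusted 0.465), at -0.76 within flutamide and -0.40 within corn oil litters and -0.46 without the 2 farthest. Gper1 had r of -0.46 with macrophage markers (permutation p = 0.0347, adjusted 0.763) and rho of -0.61 (permutation p = 0.0373, adjusted 0.465), at -0.70 within flutamide and -0.45 within corn oil litters and -0.57 without the 2 farthest. Ncoa3 had r of 0.55 with endothelial markers (permutation p = 0.0424, adjusted 0.763) and rho of 0.60 (permutation p = 0.0351, adjusted 0.465), at 0.60 within flutamide and 0.56 within corn oil litters and 0.44 without the 2 farthest. Outside these 5 relations, Nr3c1 had r of 0.47 with smooth muscle and pericyte markers (permutation p = 0.105, adjusted 0.860) and rho of 0.42 (permutation p = 0.146, adjusted 0.596), at 0.06 within flutamide and 0.83 within corn oil litters and 0.45 without the 2 farthest.

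For each receptor the 3 genes most like it between litters were listed by Pearson's r of group-centred values over 14 litters, as a description of the highest values among all other genes tested. For Esr1 these were Gnl2 at 0.88, Cyp7b1, an oxysterol and steroid hydroxylase gene, at 0.84 and Pwwp3b at 0.83. For Nr3c1 they were the kinase gene Stk17b at 0.89, the 5-lipoxygenase gene Alox5 at 0.88 and Gpatch1 at 0.87. For Gper1 they were the nicotinic receptor subunit gene Chrna3 at 0.88, the cartilage collagen gene Col2a1 at 0.87 and Rnf222 at 0.84. For Esr2 they were Tpcn2, Klhl23 and Wbp2, between 0.83 and 0.84. For Nr3c2 they were Zfp467 at 0.90, the vomeronasal receptor gene Vom2r51 at 0.88 and Ier5l at 0.84. For Pgr they were Mettl24 at 0.92, the olfactory receptor gene Or51f5 at 0.89 and Naip6 at 0.86. Several of these sit at dim array values, 3.06 for Vom2r51, 4.16 for Naip6, 4.48 for Pwwp3b, 4.60 for Chrna3 and 4.74 for Or51f5. The highest r among so many genes over 14 litters can be large between unrelated genes, and these values were not tested.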

How the data were processed

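Affymetrix Gene 1.0 ST arrays measured foreskin RNA of 7 flutamide and 7 corn oil litters. The authors deposited log2 values of 28826 probe sets in 14 samples, made with RMA per the submitters' processing notes. No RMA version is given in the sources used here. That the scale is log2 follows from the range of values, 0.669 to 13.8.

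Names came from GEO's platform annotation, with symbols brought up to date by gene number through RefSeq (assembly GRCr8), which held 14471 of 14497 genes. Only the 15209 probe sets with 1 symbol were tested (306 had several and 13311 none listed), with the brightest probe set for the 494 genes that had several. Of the members only Esr1 had more than 1.

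The two-sided test of flutamide against corn oil was limma's (version 3.58.1, lmFit and eBayes, R 4.3.3), and p-values were adjusted over all genes by Benjamini-Hochberg. The fit was tested on simulated data. Correlations used 100000 two-sided permutations of litters within groups. The alternatives were other probe set summaries, filters, scalings and variance models, array weights, the replicate number as a block, and litters left out. Correlations were rerun with the mean of all probe sets, median centring and litters left out, and not with quantile normalisation. Leaving out litters for the dimmer Esr1 probe set was added after the data were seen. Replicate numbers are shared by the groups but not said to mark a dam or day. Same-numbered litters deviated together with r from -0.07 to 0.15, over 0.1 in 1 of 7 pairs, so no pairing was assumed.

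The members and lists were chosen with earlier results of these data known. Named by rule were all members, the 2 genes of each pathway list with the smallest p-value in each direction, the brightest gene of each marker list and the 3 genes most like each receptor.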

Additional observations from a re-analysis of the deposited data

Results flagged for a closer look

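On the dimmer Esr1 probe set, corn oil replicate 1 stood apart from the other corn oil litters, at 5.42 where the next lowest was 5.69. It was picked out because its gap to the nearest litter, 0.603 of the range of its group, was unusually wide for 7 values. Of 22 groups of values checked in this way for the 11 probe sets, 1 was picked out, where chance gives about 1 in 20. On the brighter Esr1 probe set the same litter was at 6.22, inside the range of its group.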

How the results depend on the processing

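The filter for genes at or above the median level left out Esr2, Pgr, Gper1 and Nr3c2, which were not tested there. None of the 10 members passed the limma test under any alternative that included it, and Esr1, Nr3c1, Ncoa1 and Ncoa2 kept their direction throughout. The other 6 changed sign under at least 1 alternative. With samples centred on their medians, Nr3c2 was -0.00454 and Ncoa3 -0.00406. With quantile normalisation Nr3c2 was -0.00650 and Ncor1 0.00230, and without both corn oil replicate 1 and flutamide replicate 7 Gper1 was -0.0184. When 1 litter at a time was left out, differences ran from -0.0163 to 0.0723 for Esr2, from -0.121 to 0.0167 for Pgr, from -0.0341 to 0.0560 for Gper1, from -0.0686 to 0.0487 for Nr3c2, from -0.0169 to 0.0364 for Ncoa3 and from -0.0285 to 0.0209 for Ncor1. They ran from 0.10 to 0.20 for Esr1 and from -0.13 to -0.07 for Nr3c1. The number of all genes called, 1, was 2 among genes at or above the median level, 2 with the trend and robust variance model, 0 with the replicate block, 0 without both corn oil replicate 1 and flutamide replicate 7, and 0 to 1 when 1 litter was left out. The replicate block changed no call of a member. 2 of 14 litters correlated best with their own number. The number of correlated member pairs and of members correlated with a marker list each ran from 0 to 1 when 1 litter was left out. The order of the receptors by mean array value was the same in all alternatives run. None of these placed Esr1 by its dimmer probe set alone, and leaving out 1 litter moves a mean little. The cause of these shifts was not tested. Signal over background is unknown here, which limits what can be said of Pgr and Esr2.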
